A study of Mus musculus with 12 samples.

Results

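Neutrophil transcripts and the cytokine transcript Il1b were examined in B cells purified from Peyer's patches (PP), the lymphoid follicles of the small intestine, of sham-operated and stroke mice. The set was chosen by gene symbol and holds 10 of the 36175 genes in the table: S100a8, S100a9, Lcn2, Ngp, Camp, Retnlg, Mmp9, Csf3r, Cxcr2 and Il1b. Its genes were read as possible traces of neutrophils or other myeloid cells among the purified B cells. At the levels measured, most of the neutrophil transcripts were traces in both groups. Of the 10 genes, 8 had a mean under 1 normalized TPM, the deposited unit, in which read abundance is scaled by transcript length. Cxcr2 was the exception among the neutrophil transcripts, with a mean of 3.44 over the 12 mice. Il1b had the highest mean of the set. Its mean was lower in stroke mice, with an unadjusted p under 0.05 in limma but not in the exact permutation test, and it did not pass adjustment for the number of genes tested.

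Neutrophils are short-lived phagocytes that carry ready-made granules of antimicrobial proteins and leave the bone marrow for inflamed tissue along chemokine gradients. Their granule proteins are largely transcribed while the cells mature in the marrow, whereas mature cells carry much S100a8 and S100a9 transcript. IL-1β, the product of Il1b, is a cytokine of activated monocytes, macrophages and neutrophils that is made as an inactive precursor and cleaved by caspase-1 before release.

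RNA-seq was performed on bulk RNA, with 1 library per mouse, and the comparison asks how PP B cells differ after ischemic brain injury. All 12 mice were wild-type C57BL/6JHsd males aged 10 to 12 weeks according to the methods, and none carried a transgene or a deletion. The 6 stroke mice, labelled as brain injury, had the middle cerebral artery blocked by a filament for 1 h and then reopened, and the 6 sham controls had the surgery with the filament inserted and withdrawn. Cells were taken 18 h after surgery and passed through a pan-B-cell magnetic kit and then CD45 beads. These beads bind leukocytes of all kinds, neutrophils included. The methods report nearly pure B cells after both steps, and the paper reports only few neutrophils within the PP of stroke mice.

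The column totals ran from 559570 in sham mouse 6 to 1404340 in sham mouse 1, and the sequencing depth was not given. Genes above 0 numbered from 20626 to 23947 in 11 mice but 30060 in stroke mouse 6. The 8 B cell markers were high in every mouse, with a summed level of 2360 to 2919 normalized TPM in sham controls and 1805 to 2800 in stroke mice. Among their leading genes were Cd22 and Cd79a. The 15 epithelial markers summed to between 55.8 and 3697 in sham controls and between 65.3 and 1772 in stroke mice, with the highest sums in sham mice 1 and 2. The 8 T cell markers, led by Thy1, Cd3d and Cd3g, summed to between 152 and 472 in sham controls and between 187 and 337 in stroke mice. Because the RNA is bulk, fewer cells of a type and less RNA per cell cannot be told apart.

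The members spanned a wide range of levels, shown in the plot of members beside cell type markers. Il1b had a mean of 4.35 normalized TPM over the 12 mice and ranked 11235 of 36175 genes. Cxcr2 followed with a mean of 3.44. The other 8 members lay between 0.132 for S100a8 and 0.839 for Csf3r, below all 8 B cell markers and all 15 epithelial markers. Of the 10 members, 5 were above 0 in every mouse: Il1b, Cxcr2, Csf3r, Mmp9 and Camp. Genes that every cell uses were far from 0 in every library, the lowest value of Actb being 735 and that of Gapdh 66.0.

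**Figure D1:**
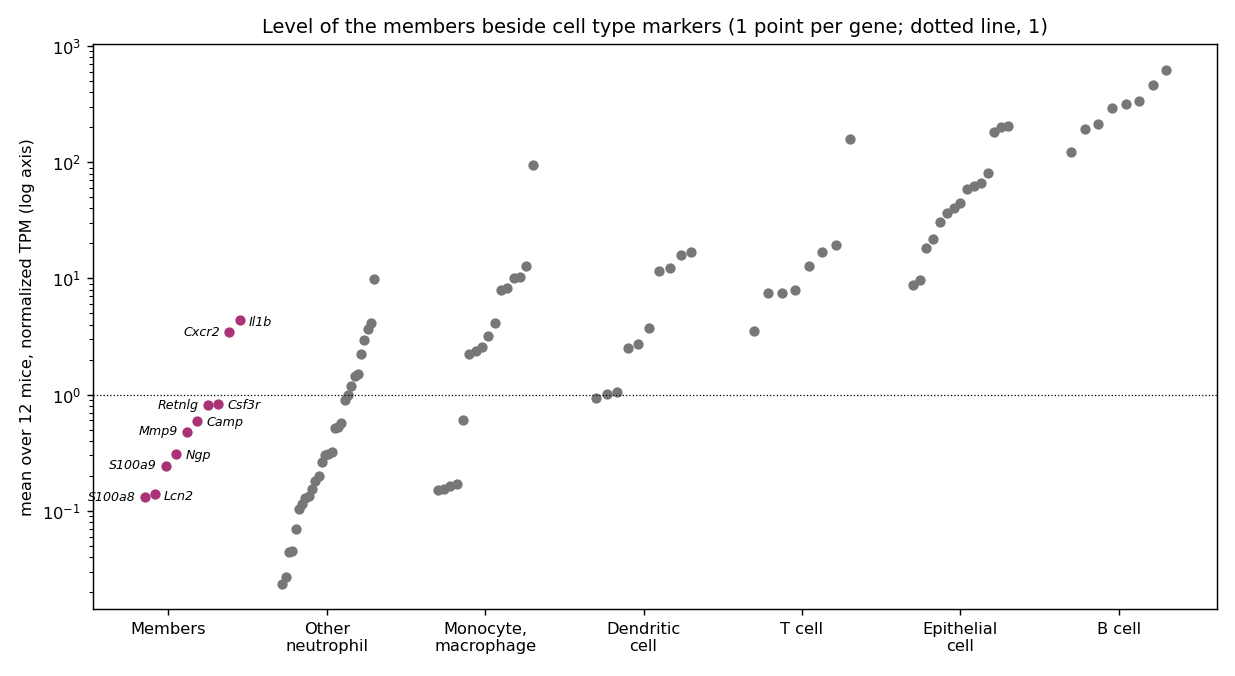
Mean level of each gene over the 12 mice in normalized TPM, on a log axis, for the 10 members and for markers of neutrophils, monocytes and macrophages, dendritic cells, T cells, epithelial cells and B cells; each point is 1 gene, and Stfa2l1, at 0 in all mice, is not drawn. Il1b and Cxcr2 lie above the dotted line at 1 normalized TPM, and the other 8 members lie below it and below all B cell markers.

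S100a8 and S100a9 encode the subunits of calprotectin, an abundant cytosolic complex of neutrophils that binds calcium and metal ions and signals through Tlr4 and Ager. On GRCm38 they are protein-coding neighbours on chromosome 3, S100a8 (ENSMUSG00000056054) at chr3:90668978-90670035 on the plus strand and S100a9 (ENSMUSG00000056071) at chr3:90692632-90695721 on the minus strand. Because S100a8, S100a9 and Il1b are the only members whose RefSeq promoter window holds the letters TATAAA, the core of the TATA box, on the gene's strand, the 30 bases around each match are shown 5′ to 3′ with those letters in capitals (GRCm38.p6; chr3:90669029-90669058 on the plus strand, chr3:90695704-90695733 on the minus strand and chr2:129371153-129371182 on the minus strand).
S100a8: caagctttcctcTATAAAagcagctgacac
S100a9: caaggagctgccTATAAAtactgggcttac
Il1b: gctttttaggacTATAAAacaagggaggga
The match began 30 bases before the start that RefSeq annotates in S100a8 and 31 bases before it in Il1b, and at that start itself in S100a9. The RefSeq start of S100a8 lies inside the GENCODE gene given above, so its match is downstream of the GENCODE start. TATAAA was searched on both strands of windows from 250 bases before to 50 after each start, without other motifs, and 9 of the 10 members had such a window. Of all 32851 windows of that length, 13.6% held it on either strand and 8.32% on the gene's strand. A match describes the letters of the window and is not a measured site.

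S100a8 was at 0 in 4 of 6 sham controls and in 2 of 6 stroke mice. Its values were 0.303 and 0.143 normalized TPM in sham mice 1 and 6, and 0.524, 0.260, 0.125 and 0.227 in stroke mice 1, 3, 4 and 6. S100a9 was above 0 in 5 mice, with 0.556 and 0.132 in sham mice 1 and 6 and 1.44, 0.48 and 0.333 in stroke mice 1, 3 and 6. Both transcripts thus appeared in the same 5 mice and were both at 0 in 6 others, as the plot of gene pairs shows, and stroke mouse 1 was the highest for each. The ranges of the groups overlapped for both genes. On the log2(value + 0.5) scale the stroke mean exceeded the sham mean by 0.24 ± 0.20 (SE, n = 6 per group) for S100a8, with an exact two-sided permutation p of 0.307. For S100a9 the difference was 0.37 ± 0.37 (SE, n = 6 per group), with an exact p of 0.424. Both differences rested on stroke mouse 1: without it they were 0.12 for S100a8 and 0.10 for S100a9. The smallest p that 6 mice against 6 allow is 0.0022.

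**Figure D2:**
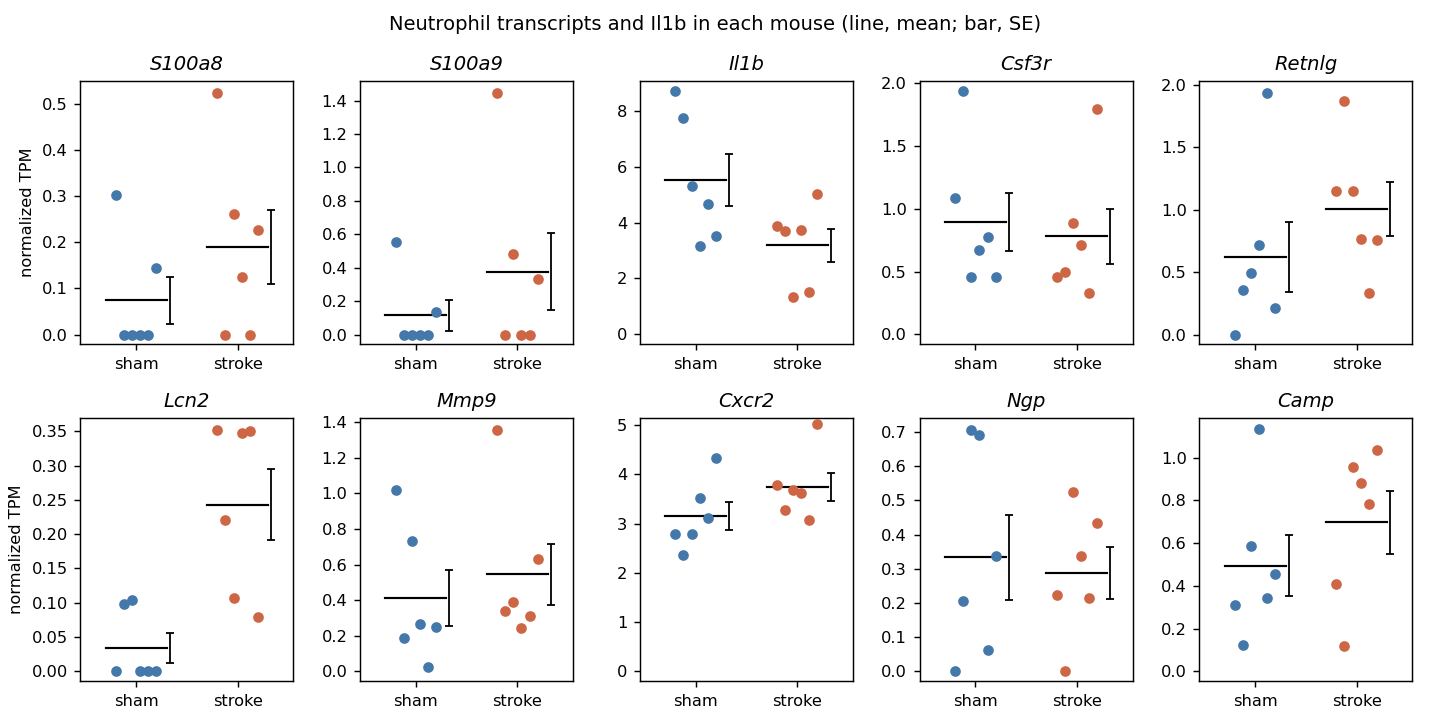
Normalized TPM of each member in the 6 sham and 6 stroke mice; each point is 1 mouse, placed within its group in order of replicate number, the line is the group mean and the bar its SE, and each panel has its own linear axis. The groups overlap in all 10 panels, with the smallest overlap for Lcn2, where 4 sham controls are at 0 and all 6 stroke mice lie between 0.079 and 0.352.

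Lcn2 encodes lipocalin 2, a protein of neutrophil secondary granules that withholds iron from bacteria by binding siderophores, and it is also made by inflamed epithelium. The gene (ENSMUSG00000026822) is at chr2:32384633-32388252 on the minus strand of GRCm38. Lcn2 was at 0 in sham mice 1, 4, 5 and 6 and was 0.099 and 0.104 normalized TPM in sham mice 2 and 3. In stroke mice 1 to 6 it was 0.352, 0.221, 0.107, 0.348, 0.350 and 0.079. All 6 stroke mice were above 0 and 5 of them exceeded the highest sham control, whereas stroke mouse 6 lay within the sham range. The log2(value + 0.5) difference was 0.46 ± 0.12 (SE, n = 6 per group), with an exact two-sided permutation p of 0.0087. Its size depended on the pseudocount, being 1.34 with 0.1 and 0.26 with 1, at the same p. Lcn2 was the only member with such a p under 0.05.

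Low transcripts as a group were more often higher in stroke mice. Among the 5516 genes with a mean from that of S100a8 to just under 1 normalized TPM, 5.24% had an exact permutation p under 0.05 with higher values in stroke mice and 0.417% with lower values. In this range 67.2% of genes had a higher stroke mean, and their median log2 difference was 0.11. Without stroke mouse 6, the library with the most genes above 0, these values were 58.6% and 0.056. Adjusted by Benjamini-Hochberg over the 5516 genes, the exact p of Lcn2 was 0.727. The exact p cannot fall below 0.0022, and only 14 of these genes had groups that did not overlap. Even such a gene could not have passed this adjustment, so it cannot decide whether Lcn2 stands apart. The part of detection in the difference of Lcn2 was not tested. The part of epithelial cells was not tested either: the 15 epithelial markers had a median log2 fold change of -1.56, none of them was called in limma at an unadjusted p under 0.05 or after adjustment, and the exact permutation p of their sum was 0.221.

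Ngp and Camp encode the neutrophilic granule protein and the cathelicidin precursor, both stored in secondary granules and transcribed in maturing marrow neutrophils. Both lie on chromosome 9 of GRCm38, Ngp (ENSMUSG00000032484) at chr9:110419747-110423012 on the plus strand and Camp (ENSMUSG00000038357) at chr9:109847379-109849617 on the minus strand. Ngp ranged from 0 to 0.707 normalized TPM in sham controls, with a median of 0.271, and from 0 to 0.526 in stroke mice, with a median of 0.279. The medians lay close together, and 1 mouse of each group was at 0. The log2(value + 0.5) difference of Ngp was -0.03 ± 0.26 (SE, n = 6 per group; exact two-sided permutation p = 0.903), and it turned positive with a pseudocount of 0.1. Camp ranged from 0.125 to 1.14 in sham controls, with a median of 0.400, and from 0.120 to 1.04 in stroke mice, with a median of 0.832. The stroke median of Camp was the higher, but the ranges were nearly the same. Its log2(value + 0.5) difference was 0.27 ± 0.28 (SE, n = 6 per group; exact two-sided permutation p = 0.368), and it ran from 0.15 without sham mouse 2 to 0.45 without stroke mouse 2. Without sham mice 1 and 2 the difference of Camp was 0.063 (exact permutation p = 0.871).

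Retnlg encodes resistin-like gamma, a secreted protein of mouse neutrophils and marrow, and its gene (ENSMUSG00000022651) is at chr16:48872621-48874496 on the plus strand of GRCm38. In normalized TPM, the sham controls (replicates 1 to 6) had 0, 0.353, 0.496, 0.715, 1.94 and 0.213, and the stroke mice, in the same order, 1.15, 1.87, 1.15, 0.766, 0.332 and 0.758. Of the stroke mice, 5 lay above the sham median, while sham mouse 5 was the highest of all 12. The log2(value + 0.5) difference was 0.54 ± 0.38 (SE, n = 6 per group), with an exact two-sided permutation p of 0.171. Without sham mouse 5 it was 0.81, with an exact permutation p of 0.026. Without sham mouse 1 it was 0.35 (exact permutation p = 0.342), and without sham mice 1 and 2 it was 0.25 (exact permutation p = 0.524).

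Mmp9 encodes gelatinase B, a matrix metalloproteinase of neutrophil tertiary granules, at chr2:164940780-164955850 on the plus strand of GRCm38 (ENSMUSG00000017737). It ranged from 0.022 to 1.02 normalized TPM in sham controls, with a median of 0.256, and from 0.245 to 1.36 in stroke mice, with a median of 0.364. Mouse 1 was the highest of each group, and the groups overlapped. The log2(value + 0.5) difference was 0.22 ± 0.31 (SE, n = 6 per group; exact two-sided permutation p = 0.504). Without stroke mouse 1 it was 0.036, without sham mouse 1 it was 0.38, and without sham mouse 5 it was 0.075.

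Cxcr2 encodes the receptor for the CXC chemokines that draw neutrophils into tissue, and Csf3r encodes the receptor for G-CSF, the growth factor that drives their production. Cxcr2 (ENSMUSG00000026180) is at chr1:74153989-74161246 and Csf3r (ENSMUSG00000028859) at chr4:126024550-126044440, both on the plus strand of GRCm38. In normalized TPM, Cxcr2 was 2.78, 2.35, 2.79, 3.51, 3.11 and 4.33 for sham replicates 1 to 6 and 3.79, 3.27, 3.68, 3.62, 3.07 and 5.02 for stroke replicates 1 to 6. All 6 stroke mice lay above the sham median of 2.95, the groups overlapped, and mouse 6 was the highest of each. The mean was 3.15 ± 0.70 in sham controls and 3.74 ± 0.68 in stroke mice (SD, n = 6 per group). In limma the log2 fold change was 0.23 ± 0.15 (SE), with a 95% confidence interval from -0.10 to 0.55, an unadjusted p of 0.153 and a Benjamini-Hochberg adjusted p of 0.791. The exact two-sided permutation p was 0.139. Without sham mouse 6 the log2 fold change was 0.31, with a limma p of 0.040 and an exact p of 0.024. Without stroke mouse 6 it was 0.15, with a limma p of 0.325 and an exact p of 0.273, and without sham mice 1 and 2 it was 0.11, with a limma p of 0.501.

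Csf3r ranged from 0.455 to 1.94 normalized TPM in sham controls, with a median of 0.722, and from 0.333 to 1.80 in stroke mice, with a median of 0.603. The ranges nearly coincided, with sham mouse 2 and stroke mouse 6 the highest of their groups. Its log2(value + 0.5) difference was -0.13 ± 0.30 (SE, n = 6 per group; exact two-sided permutation p = 0.654), and it was 0.05 without sham mouse 2. Cxcr2 was thus the only member other than Il1b that was above 1 normalized TPM in every mouse, also in mice with neither calprotectin transcript, such as sham mouse 4 at 3.51.

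Il1b (ENSMUSG00000027398) is at chr2:129364570-129371139 on the minus strand of GRCm38. Sham replicates 1 to 6 had 8.69, 7.74, 5.29, 3.15, 4.66 and 3.53 normalized TPM, and stroke replicates 1 to 6 had 3.86, 3.68, 1.33, 3.71, 1.53 and 5.03. Sham mice 1, 2 and 3 lay above every stroke mouse, stroke mice 3 and 5 lay below every sham control, and the others overlapped. The mean was 5.51 ± 2.25 in sham controls and 3.19 ± 1.45 in stroke mice (SD, n = 6 per group). In limma the log2 fold change was -0.73 ± 0.32 (SE), with a 95% confidence interval from -1.43 to -0.03 and an unadjusted p of 0.0411. Lower values than the sham median were found in 5 of 6 stroke mice. The Benjamini-Hochberg adjusted p in limma was 0.789, and the exact two-sided permutation p was 0.0714.

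Of the 2 members with a mean of at least 1, which limma tested, 1 was called at an unadjusted p under 0.05, and it was Il1b. Among all 15624 genes tested, 1.6% (250) were called lower and 4.29% (670) higher in stroke mice by the same rule, beside which 2 members are too few for a share to be read. This split rested in part on sham mouse 6, the library with the lowest total, without which 1301 genes were called lower and 1123 higher. It was 357 lower and 510 higher with median-of-ratios scaling and 329 lower and 502 higher with quantile normalization. After adjustment 0.0064% of genes were called, which was a single gene that is no member, Gm9406, named after its values were seen. Over all 10 members the mean log2(value + 0.5) was higher in stroke mice for 7 and lower for 3, and the median difference was 0.23. The 8 members under 1 normalized TPM belong to the range of low genes, of which 67.2% were higher in stroke mice with a median of 0.11. In direction 7 of 10 is near that share, but Cxcr2, which was higher, and Il1b, which was lower, lie outside that range. The members' median of 0.23 was larger than 0.11, and whether it stands apart was not tested. The median over the genes tested in limma was 0.011. For 0 of the 10 members did the groups not overlap, and such genes were rare in general, at 0.416% of the genes tested in limma and 0.254% of the 5516 low genes. The sum of the 9 members other than Il1b was 6.12 ± 0.57 normalized TPM in sham controls and 7.87 ± 1.95 in stroke mice (SD, n = 6 per group), with ranges from 5.26 to 6.99 and from 5.39 to 10.3. Stroke mice 1, 3 and 6 had the highest sums, which were 9.71, 8.45 and 10.3.

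**Figure D3:**
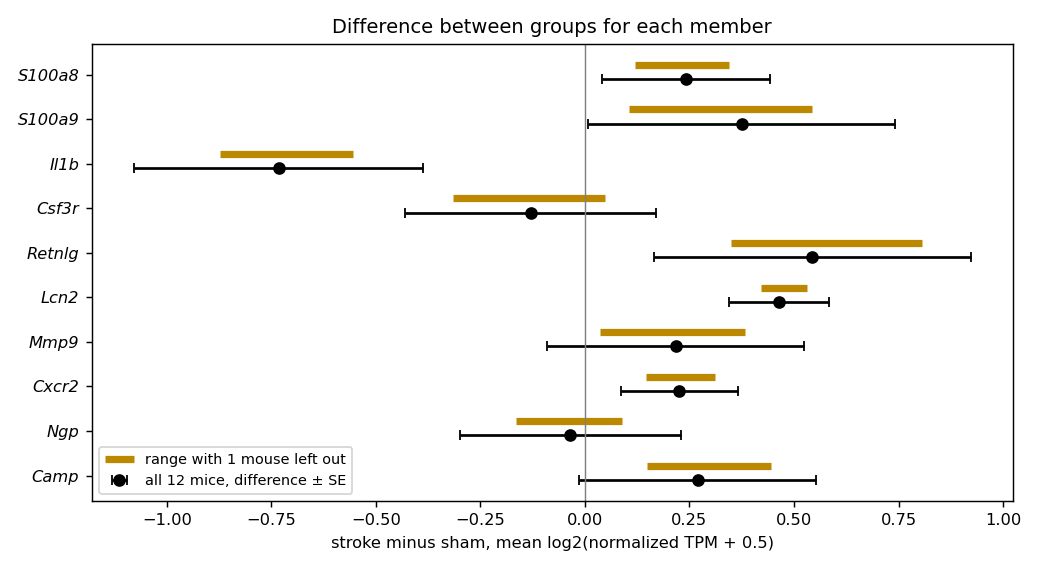
Difference between stroke and sham mice for each member in mean log2(normalized TPM + 0.5); points and bars give the difference and its SE over 12 mice, and the thick bars give the range when each mouse was left out in turn. Il1b stays below 0 and Lcn2 above 0 throughout, whereas Csf3r and Ngp cross 0.

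The call of Il1b rested on single mice. Without sham mouse 1, 2, 3 or 5, or stroke mouse 3 or 5, its limma p was above 0.05, and the log2 fold change over all 12 such fits ran from -0.87 to -0.55. Sham mice 1 and 2, the pair with the highest Il1b, were also the pair with the highest epithelial marker sums. The same pair had the highest column totals, 1404340 and 1386990, and sham mouse 1 had the highest monocyte and macrophage sum. With both left out, a choice made after seeing the data, the log2 fold change was -0.42, with a limma p of 0.221 and an exact permutation p of 0.281. In that comparison the exact permutation p of Lcn2 was 0.0143.

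Il1b was set beside the summed markers of 11 cell types across the 12 mice, on the log2(value + 0.5) scale, also chosen after seeing the data. The values were used as deposited and were not rescaled to the same total for these relations. With the epithelial sum, Pearson's r was 0.73 (permutation p = 0.006, adjusted over the 11 lists 0.066) and Spearman's rho was 0.64 (permutation p = 0.029, adjusted 0.162). Within groups r was 0.78 in sham controls and 0.59 in stroke mice, and it was 0.63 without sham mouse 1 and stroke mouse 3, the mice farthest from the median of Il1b. With the other neutrophil markers r was 0.61 (permutation p = 0.036, adjusted 0.200) and rho was 0.67 (permutation p = 0.021, adjusted 0.162), with 0.83 in sham controls, 0.66 in stroke mice and 0.70 without those mice. With the monocyte and macrophage markers r was 0.46 (permutation p = 0.129, adjusted 0.303) and rho was 0.39 (permutation p = 0.211, adjusted 0.463), with 0.80 in sham controls, 0.12 in stroke mice and 0.65 without those mice. With the B cell markers r was 0.52 (permutation p = 0.093, adjusted 0.303) and rho was 0.42 (permutation p = 0.177, adjusted 0.463), with -0.11 in sham controls, 0.69 in stroke mice and 0.85 without those mice. None of the 11 relations passed adjustment, and the part of these cells in the difference of Il1b was not tested.

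**Figure D4:**
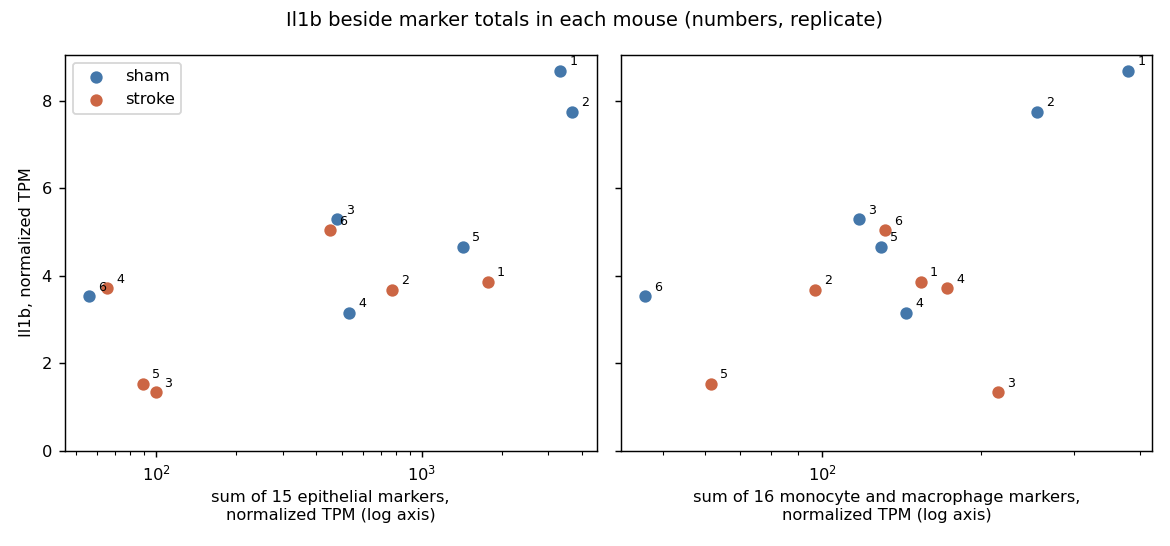
Il1b in normalized TPM against the sum of 15 epithelial markers (left) and of 16 monocyte and macrophage markers (right), each on a log axis, in 6 sham and 6 stroke mice; each point is 1 mouse and the number is its replicate. Sham mice 1 and 2, with Il1b at 8.69 and 7.74, also have the highest sums in both panels.

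The members did not vary as 1 block among the mice. Over the 36 pairs of the 9 members above 0 in at least 6 mice, 19 had a positive and 17 a negative Pearson's r, with a median of 0.016. The 2 pairs with a permutation p under 0.05 were Ngp with Camp and S100a8 with Mmp9, and neither passed adjustment over the 36 pairs (smallest adjusted p = 0.129). For Ngp and Camp r was 0.74 (permutation p = 0.0068) and rho 0.81 (permutation p = 0.0025, adjusted 0.091). It was 0.73 within sham controls, 0.92 within stroke mice and 0.63 without sham mouse 1 and stroke mouse 2. For S100a8 and Mmp9 r was 0.73 (permutation p = 0.0071) and rho 0.60 (permutation p = 0.042, adjusted 0.673), with 0.61 in sham controls and 0.84 in stroke mice. That relation was weaker, at 0.31, without sham mouse 1 and stroke mouse 1. Il1b and S100a8 had an r of 0.02 (permutation p = 0.947, adjusted 0.961) and a rho of 0.08 (permutation p = 0.809), with 0.38 in sham controls, 0.23 in stroke mice and -0.31 without sham mouse 1 and stroke mouse 1.

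**Figure D5:**
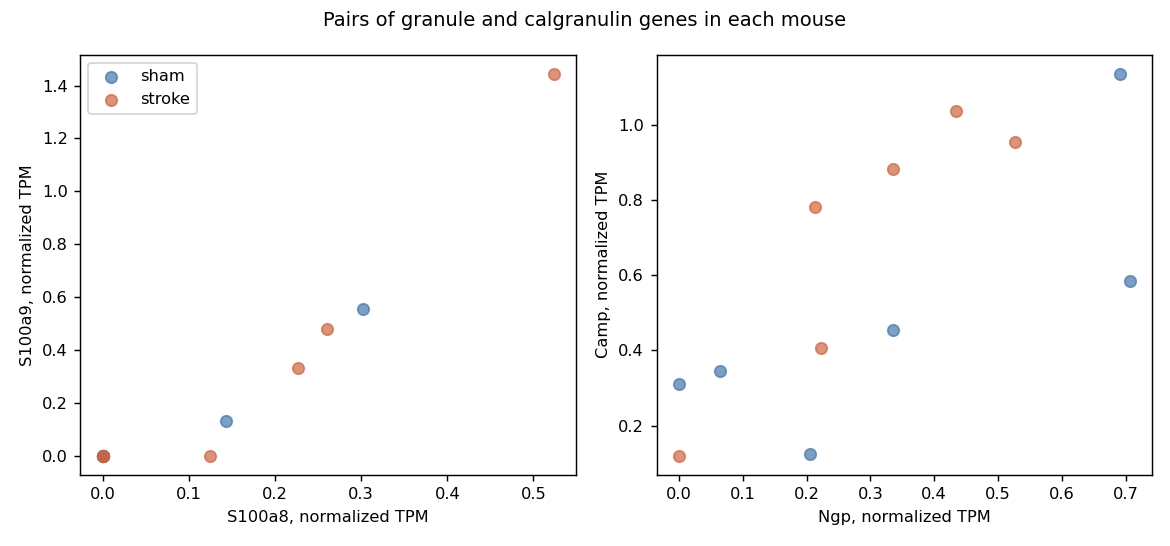
S100a9 against S100a8 (left) and Camp against Ngp (right) in normalized TPM; each point is 1 of 6 sham or 6 stroke mice, and 4 sham and 2 stroke mice share the point at 0 in the left panel. S100a9 is above 0 in 5 mice that also have S100a8, and mice with more Ngp tend to have more Camp.

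Of the 15624 genes tested, those most like Il1b over the 12 mice by Pearson's r were Itpripl2 (0.91), Lpgat1 (0.89), Plpp3 (0.89), Mydgf (0.89) and Lrba (0.88). Those most like S100a8 were Pianp (0.90), Gm3618 (0.88), Capn10 (0.85), Ms4a6d (0.84) and Gm18343 (0.84). These values describe 12 libraries and were picked as the highest of many, and none of the 10 genes is a member.

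Most other neutrophil markers were low too. Of 30 such genes, 22 had a mean under 1 normalized TPM. Ly6g, the surface antigen that defines mouse neutrophils, had means of 0.087 in sham controls and 0.141 in stroke mice and was above 0 in 4 of 12 mice. Stfa2l1 was at 0 in all mice. The summed level of the list was 23.3 to 49.2 in sham controls and 23.2 to 40.9 in stroke mice, the highest gene being Pglyrp1, a peptidoglycan recognition protein, with means of 12.5 in sham controls and 7.26 in stroke mice (log2 fold change -0.54, limma unadjusted p = 0.181). The exact two-sided permutation p of the sum was 0.987. Of the 8 genes tested 3 were called higher and 0 lower in limma at an unadjusted p under 0.05, namely Il1r2, Gfi1 and Ifitm6, each with an adjusted p of 0.789. Over all genes tested the shares were 4.29% higher and 1.6% lower. The median log2 fold change of the 8 was 0.088, beside 0.011 over all genes tested.

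Il1r2, the decoy receptor that binds IL-1β without signalling, ranged from 1.74 to 3.47 normalized TPM in sham controls and from 2.90 to 5.46 in stroke mice. Of the stroke mice, all but stroke mouse 5 lay above the sham range. Its mean was 2.90 ± 0.64 in sham controls and 4.49 ± 0.99 in stroke mice (SD, n = 6 per group), a log2 fold change of 0.55 ± 0.18 (SE) in limma with an unadjusted p of 0.009. Gfi1, a transcriptional repressor of granulocyte and lymphoid development, had means of 2.33 and 3.55, and Ifitm6, an interferon-induced membrane protein gene, had means of 0.908 and 2.11. Their log2 fold changes in limma were 0.53 (unadjusted p = 0.048) and 0.86 (unadjusted p = 0.035). The exact two-sided permutation p was 0.063 for Gfi1 and 0.058 for Ifitm6. Both overlapped between the groups.

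Monocyte and macrophage markers differed widely in level. The 16 genes summed to between 46.2 and 380 normalized TPM in sham controls and between 61.7 and 216 in stroke mice, and Lyz2, the lysozyme of myeloid cells, made up most of it with means of 109 and 78.8. C1qa, a complement subunit of tissue macrophages, had means of 14.8 and 10.8, and Cd68, a lysosomal protein of macrophages, 9.90 and 10.5. Of the 16 genes 5 had a mean under 1, as low as most members: Adgre1, Cd14, Cd163, Fcgr1 and Mrc1, which were picked out with their values known. None of the 11 genes tested was called in limma at an unadjusted p under 0.05, and 0 had an adjusted p under 0.05. Of the 10 dendritic cell markers 9 were tested and 1 was called higher, beside 4.29% of all genes tested. This was Flt3, a growth factor receptor, with means of 9.63 and 13.7 and a log2 fold change of 0.50 (limma unadjusted p = 0.004, adjusted 0.789).

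The remaining myeloid and blood cell lists were low. The 8 mast cell and basophil markers summed to between 6.13 and 23.4 normalized TPM in sham controls and between 6.75 and 17.0 in stroke mice, led by Kit, Ms4a2 and Mcpt1. The 6 eosinophil markers, led by Prg2, Siglecf and Ear2, summed to between 8.28 and 33.8 and between 10.1 and 41.2. Prg2 made up most of this sum, with means of 24.5 and 23.4, and the other 5 had a mean under 1 over the 12 mice. The 4 platelet markers, led by Itga2b, Gp9 and Pf4, summed to between 1.34 and 5.50 and between 1.06 and 12.0. None of these 3 lists held a gene called in limma. Many of their genes were below its filter, among them Gata2, a transcription factor of mast cells and basophils singled out after its values were seen, which was at 0 in all 6 sham controls and between 0.013 and 0.517 normalized TPM in the 6 stroke mice (exact two-sided permutation p = 0.0022). Of the low genes from the mean of S100a8 to under 1, 0.254% had groups that did not overlap, and the mean of Gata2, 0.077, lay below that range. Of the 6 erythroid markers 4 were tested and 1 was called higher, the haemoglobin gene Hba-a2, beside 4.29% of all genes tested. Its means were 1.29 and 7.93, with a limma unadjusted p of 0.025 (adjusted 0.789) and an exact permutation p of 0.054. The 6 endothelial markers summed to between 83.5 and 108 and between 91.1 and 110, of which Pecam1, which leukocytes also carry, made up most, followed by Vwf and Cdh5.

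The partners of IL-1β were mostly present, and 13 of 15 were tested. Il1r2, described above, was the only one called in limma, with 1 higher and 0 lower, and the median log2 fold change was -0.12. Among all genes tested 4.29% were called higher and 1.6% lower, and the median was 0.011. The sensor Nlrp3 was low, with means of 0.461 normalized TPM in sham controls and 0.392 in stroke mice, whereas the adaptor Pycard had 27.6 and 20.1, Casp1, the protease that cleaves the precursor, 20.2 and 20.5, and Gsdmd, the pore protein of its release, 84.6 and 73.1. The related cytokine genes Il1a and Il18 had means of 0.783 and 0.626 and of 5.64 and 3.26, and the antagonist Il1rn 4.68 and 4.73.

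The signalling receptor Il1r1 had means of 1.28 and 1.03 normalized TPM, and its accessory chain Il1rap 3.03 and 2.54. The adaptor Myd88 had 19.7 and 20.1, the kinase Irak4 22.9 and 20.1, and the inhibitory family member Irak3 33.5 and 36.4. The NF-κB inhibitors Nfkbia and Nfkbiz had 105 and 103 and 26.8 and 24.5. These genes are shared with B cells and other leukocytes, so their levels are no measure of myeloid cells.

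Among 14 ligands and receptors of the members, 5 had a mean of at least 1 and 1 of them was called in limma, higher in stroke mice. This was Cxcl5, a chemokine that binds Cxcr2, with values from 0.434 to 1.32 normalized TPM in sham controls and from 1.41 to 3.61 in stroke mice. The groups did not overlap, as in 0.416% of all genes tested in limma, of which 4.29% were called higher, and stroke mouse 5 was the highest. The mean was 1.08 ± 0.33 in sham controls and 2.01 ± 0.81 in stroke mice (SD, n = 6 per group), a log2 fold change of 0.65 ± 0.21 (SE) in limma with an unadjusted p of 0.009 and an adjusted p of 0.789. An exact two-sided permutation test gave p = 0.0022, as small as 6 mice against 6 allow.

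The other Cxcr2 ligands were near 0, with means of 0.129 and 0.042 normalized TPM for Cxcl1, 0.068 and 0.140 for Cxcl2, 0.206 and 0.256 for Cxcl3 and 0.008 and 0.098 for Ppbp in sham and stroke mice. Csf3, which encodes the ligand of Csf3r, had 0.158 and 0.243. The related receptor gene Cxcr1 was at 0 in all sham controls and above 0 in 2 mice. Of the calprotectin receptors, Tlr4 had means of 5.88 and 6.48 and Ager 3.53 and 5.50, with a limma unadjusted p of 0.068 for the latter. Slc22a17, the lipocalin 2 receptor, had 0.469 and 0.696, and Fpr2, a receptor for the Camp peptide, 0.313 and 0.213. The Mmp9 inhibitors Timp1 and Timp2 had 0.022 and 0.110 and 1.21 and 1.30, and Cap1, a receptor described for resistin, 328 and 261.

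Genes of neutrophil extracellular traps, the webs of DNA and granule proteins that activated neutrophils release, lay at very unlike levels. The protease genes Elane, Ctsg and Prtn3 were at 0 in all sham controls and had stroke means of 0.047, 0.256 and 0.140 normalized TPM, being above 0 in 2, 3 and 2 mice. Their exact two-sided permutation p values were 0.455, 0.182 and 0.455. Their means over all mice lay below the range of low genes described above, of which 67.2% had a higher stroke mean. Mpo, the myeloperoxidase gene, had means of 0.938 and 0.868, and Padi4, the enzyme that citrullinates histones, 0.266 and 0.338. The oxidase subunits Cybb and Ncf1, which B cells express too, had 96.9 and 91.7 and 132 and 110. Neither was called in limma at an unadjusted p under 0.05 or after adjustment, and both fold changes were negative.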

How the data were processed

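RNA-seq libraries of PP B cells from 12 mice, 6 sham and 6 stroke, were analysed from 1 table of gene values. The submitters' processing notes name FastQC, Trimmomatic 0.39, kallisto 0.48.0, sleuth 0.30.0 and R 4.1.2, and the methods name GRCm38 and Ensembl release 102. The authors deposited normalized TPM, an expression signal per gene whose column totals differ between mice. The tests had assumed plain TPM, so the values were treated as a signal, tested on a log scale as planned, and rescaled to equal totals as an alternative. No counts were given, so depth is unknown and no counting interval was computed.

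Values were taken as log2(value + 0.5). The test across genes was limma 3.58.1 (R 4.3.3), two-sided with Benjamini-Hochberg adjustment, on the 15624 genes whose mean over the 12 mice was at least 1. A call is an unadjusted p under 0.05. Each member, also those below the filter, was compared by an exact two-sided permutation test that enumerated the 924 assignments, and correlations by 100000 permutations (Python 3.11.15, numpy 2.4.6, scipy 1.17.1). Fold changes on this scale understate those of low genes. Each sample is a separate mouse. Groups came from the sample labels.

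The members and gene lists were chosen with earlier results of these data known. The text names all members and their partner genes, every marker gene called in limma and otherwise the 3 highest of a marker list, and the 5 genes most like Il1b and S100a8; other genes were named after their values were seen. Some genes of this rule are left out of the text. Coordinates are from GENCODE M21 on GRCm38, in which 35869 of 36175 identifiers were found. Promoter windows are from RefSeq, GRCm38.p6, in which 9 members matched. Limma was tested on simulated data for the comparison of stroke with sham over 15624 genes: 153 of 200 genes given a log2 change of 1.5 had an adjusted p under 0.05. Alternatives were pseudocounts of 0.1 and 1, other filters, rescaling, median-of-ratios and quantile scaling, a replicate block, sample quality weights, an intensity trend and leaving out mice.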

Additional observations from a re-analysis of the deposited data

Results flagged for a closer look

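In 22 groups of 6 values, namely each member and the sum of the 9 members other than Il1b in each group, 5 held a mouse whose gap to its nearest neighbour was large against the range of the group by Dixon's 95% limit, where chance gives about 1 in 20 groups of normally distributed values. These values hold many zeros and the sums reuse the members, so the count of 5 cannot be set against that rate. S100a9 was 0.556 normalized TPM in sham mouse 1 and 1.44 in stroke mouse 1, each the highest of its group. Mmp9 was 1.36 in stroke mouse 1, Retnlg was 1.94 in sham mouse 5 and Cxcr2 was 5.02 in stroke mouse 6, each also the highest of its group.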

How the results depend on the processing

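The count of 920 genes called was 1768 with no filter, 554 after rescaling to the same total, 546 after rescaling without immunoglobulin genes, 1643 with sample quality weights, and 689 to 2424 with 1 mouse left out, the highest without sham mouse 6. The number of members called, 1, was 2 with no filter (Il1b and Lcn2), 0 under both rescalings, with quality weights and without sham mice 1 and 2 together, and 0 to 2 with 1 mouse left out. Rescaling moved the median of all genes from 0.011 to 0.13 and, without immunoglobulin genes, to 0.12. The log2 fold change of Il1b in limma across all genes was -0.61 and -0.62 under the rescalings, -0.50 with weights, -0.42 without sham mice 1 and 2 and -0.87 to -0.55 with 1 mouse left out. Its limma p without adjustment was 0.0557 and 0.0559 under the rescalings, 0.106 with weights and 0.221 without those mice. Its adjusted p in limma ranged from 0.311 to 0.998. The exact permutation p of Il1b fell below 0.05 after quantile normalization (-0.73, p = 0.039) and without sham mouse 4 or stroke mouse 6, and with 1 mouse left out its difference was -0.87 to -0.55. The log2 fold change of Cxcr2 was 0.15 to 0.31 with 1 mouse left out, by limma and by the exact test, and the difference of Retnlg 0.35 to 0.81. Csf3r turned positive without sham mice 1 and 2 (0.16) and ran from -0.32 to 0.047 with 1 mouse left out. Ngp turned positive with a pseudocount of 0.1 (0.015) and ran from -0.17 to 0.089 with 1 mouse left out. The cause was not tested. Lcn2 kept its direction and an exact p under 0.05 in all 12 fits with 1 mouse left out (0.0022 to 0.0173) and in all 8 other settings run for it (0.0065 to 0.0325). S100a8, S100a9, Mmp9 and Camp kept their direction throughout without passing. With a pseudocount of 0.1 or 1, the difference was 1.34 or 0.26 for Lcn2, 0.68 or 0.14 for S100a8, 0.78 or 0.24 for S100a9, 1.02 or 0.36 for Retnlg, 0.49 or 0.13 for Mmp9 and 0.43 or 0.18 for Camp. The median r over the pairs moved by less than the spread over the pairs.

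The labels do not say what the shared replicate numbers stand for. Deviations of same-numbered mice had a mean correlation of 0.206, against -0.041 for other pairings, and 5 of 6 pairs were above 0.1. Because pair 5 was at -0.014 and every pair had to exceed 0.1, the numbers were not taken to pair the mice. By this measure 2 of 6 sham controls correlated best with their own number. With the replicate block 1438 genes were called, and the call of Il1b held in limma (p = 0.0443), while its exact sign-flip p was 0.125. Lcn2 was higher in stroke mice in 6 of 6 pairs, with an exact p of 0.0312 under the block, the smallest that 6 pairs allow.

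Depth was not given. With no read counts, a value of 0 cannot be told from a low level, and no upper limit was computed for the members listed at 0 in some mice.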
